A study of Arabidopsis thaliana with 6 samples.

Results

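A stretch of neighbouring genes on chromosome 1 of Arabidopsis thaliana had mostly higher signals in the apl mutant than in wildtype. Its members are the probe sets that the platform annotation pairs with 1 gene, listed there under a locus code from AT1G07650 to AT1G09230. They number 65 probe sets for 64 genes, of 38408 probe sets in all and of 16542 genes that are singly paired in that annotation. The segment was picked because of its differences between apl and wildtype in these same arrays, so every difference below describes the members and tests nothing about them.

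The mutant plants carried the apl genotype, and the wildtype plants were labelled Col-0. The sources used here give no allele and no cultivar for the apl samples. Cotyledons of 6-day-old seedlings of both genotypes were cultured in an induction medium with the auxin 2,4-D (1.25 mg/L), bikinin (10 µM), an inhibitor of GSK3-type kinases that turns on brassinosteroid responses, and the cytokinin kinetin (0.25 mg/L). In this culture, called VISUAL, leaf cells take on vascular fates, and RNA was taken after 72 h. Each group had 3 arrays of 1 colour, apl replicates 1 to 3 and wildtype replicates 1 to 3, and the labels do not say that these came from separate cultures.

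APL is a MYB-type transcription factor needed for phloem identity. Neighbouring Arabidopsis genes mostly have promoters of their own and often unrelated functions. The genes of this segment range from ribosomal proteins and RNA-processing factors to sugar transporters, receptor kinases and proteases, and no common pathway is known for them. On the log2 scale used here, a doubling of signal is a difference of 1 unit. In whole tissue, fewer cells of a type and less RNA per cell cannot be told apart.

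Array medians over all probe sets were 6.05 to 6.25 log2 units. Arrays of a group correlated with Pearson's r of 0.969 to 0.977, and arrays of different groups with 0.949 to 0.974. Of 21 markers fixed for cell types, 12 were measured under a name. The mesophyll markers RCA and LHCB4.1 were well above the overall median, at 10.1 and 9.05 in apl and at 10.2 and 8.90 in wildtype. The xylem markers IRX10, IRX15 and IRX15-L had differences (apl minus wildtype) of -1.14, -2.06 and -1.48, and the phloem markers SWEET11, CLE41, CLE44 and CLE45 of 2.25, 0.47, 0.70 and -1.32. Those of the guard cell lineage, FAMA, SPCH and MUTE, had -0.45, 0.04 and 0.05. None of the 12 was called, with limma adjusted p of 0.19 to 0.98, and their part in the segment's differences was not tested. No probe set is paired with APL, so its level is not analysed here.

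Most members stood higher in apl. At a mean log2 signal over 8 and up to 10 their median was near a doubling, and it was lower at other levels. When members were classed by wildtype signal alone, the class over 6 and up to 8 was near a doubling too. Its median was then 0.98, against 1.07 over 8 and up to 10. The median difference (apl minus wildtype) of all 65 members was 0.67, and the middle 50% of them ran from 0.23 to 1.04. Above 0 were 60 of the 65, as were 64.0% of all probe sets. The median of all probe sets was 0.10. In 36 of the 65 members the lowest apl array lay above the highest wildtype array, against 9.91% of all probe sets, and in 1 member the order was the opposite. Calls at an adjusted p under 0.05 (limma, Benjamini-Hochberg over all probe sets) numbered 5 higher and 0 lower, where 0.0781% and 0.526% of all probe sets were called higher and lower. Before adjustment, 35 members were higher and 1 was lower at a p under 0.05, as were 4.66% and 4.34% of all probe sets. None of the 5 was called when any 1 of the 6 arrays was left out.

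**Figure D1:**
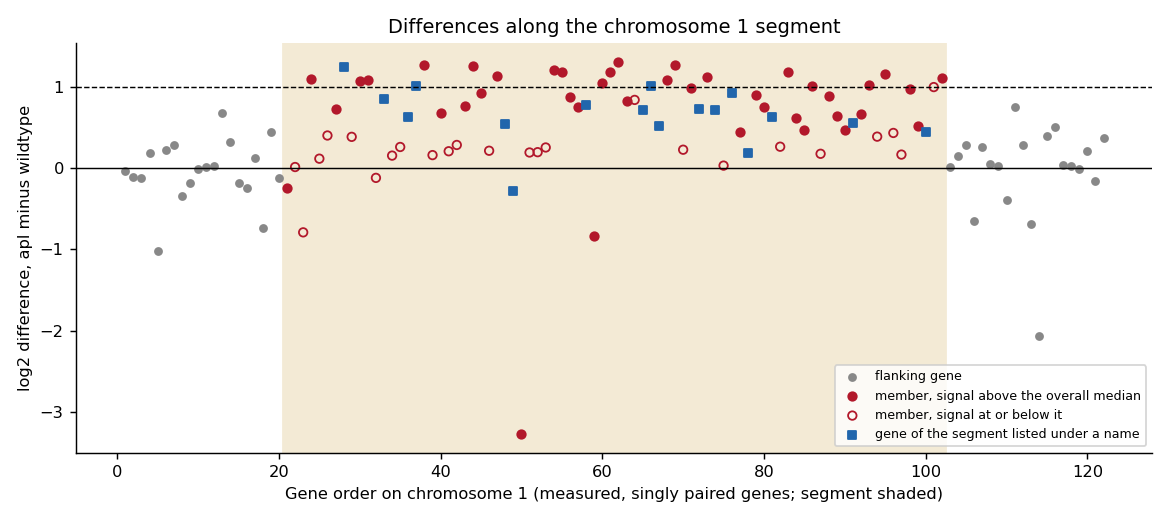
Log2 difference (apl minus wildtype) of each singly paired gene against its order on chromosome 1. Filled red points are members with signal above the overall median, open red points are dimmer members, blue squares are genes of the segment listed under a name, grey points are the 20 genes on each side, and the dashed line marks a doubling. From AT1G07700 to the right end most filled points lie between 0.45 and 1.30, with AT1G08160 at -3.27 far below the rest.

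The members were parted by their mean signal over the 6 arrays. This level includes the apl signal, so a member can count as brighter because it is high in apl. The 41 brighter members, above the overall median of 6.20, had a median difference of 0.97, and the 24 dimmer ones 0.21. Of the 41, 38 lay above 0 (67.8% of all probe sets above that level did) and 25 lay within 0.25 of a doubling (1.98% did). Over all 65 members 27 lay within 0.25 of a doubling, against 2.86% of all probe sets. Of the 24, 22 lay above 0 (60.2% of all probe sets at or below that level did) and 2 lay within 0.25 of a doubling (3.73% did). By wildtype signal alone, parted at its median of 6.14 over all probe sets, 37 members were brighter with a median difference of 0.98, and 28 were dimmer with 0.24. The 4 that pass only through the mean over both groups were AT1G08230, AT1G08610, AT1G08900 and AT1G09190. The median of singly paired probe sets elsewhere was 0.09 for brighter and 0.07 for dimmer ones.

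Members with a known role in making RNA and protein lay close together. There were 9 of them, grouped by role after their values had been seen, and the 8 brighter ones lay between 0.97 and 1.18 with a median of 1.09. Of these 8, AT1G08610 and AT1G09190 were below the median in wildtype and counted as brighter through their apl signal, and the other 6 lay between 1.02 and 1.18. Whether they lay closer together than other members was not tested. The 22 members of any role above 0 with a mean log2 signal over 8 and up to 10 ran from 0.75 to 1.30. Probe sets shared by genes of the translation factor eEF1A are not members, and they differed by at most 0.78. AT1G08360, a ribosomal protein of the L1p/L10e family, had log2 signals of 9.19, 9.12 and 9.08 in apl replicates 1 to 3, against 7.99, 7.98 and 7.88 in wildtype replicates 1 to 3. The groups were far apart beside their spread, with a difference of 1.18 (SE 0.16), a 2.27-fold higher signal in apl. AT1G08845, of the ribosomal L18p/L5e family, stood at 9.35, 9.24 and 9.26 in apl, against 8.23, 8.14 and 7.95 in wildtype, which is also a difference of 1.18 (SE 0.17). The L29-type ribosomal protein AT1G07830 differed by 1.07 (SE 0.22), and the Sas10/Utp3-type nucleolar protein AT1G07840 by 1.09 (SE 0.21). The groups overlapped in none of these 4 genes.

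Other RNA-binding proteins of this set included the dimmest of these genes. The pentatricopeptide repeat proteins bind organelle transcripts and edit, splice or stabilise them. AT1G08610 had 6.94, 6.78 and 6.98 in apl, against 5.90, 5.74 and 5.70 in wildtype, a difference of 1.12 (SE 0.17). AT1G09190 differed by 0.97 (SE 0.21). AT1G09220, the third of them, had 5.23, 5.18 and 5.48 in apl, against 4.43, 4.3 and 4.16 in wildtype, and its groups did not overlap although it counts among the dimmer members. Its difference was 1.0 (SE 0.18). U11/U12-65K (AT1G09230), a protein of the minor spliceosome that removes a rare class of introns, had 9.43, 8.98 and 9.12 in apl, against 8.25, 8.06 and 7.92 in wildtype, a difference of 1.10 (SE 0.20). The PUA-domain protein AT1G09150 differed by 1.02 (SE 0.18).

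The largest differences above 0 belonged to genes of varied or unstated function. The ribosomal proteins AT1G08360 and AT1G08845, described above at 1.18 each, also have a place among these differences. AT1G08390, an RMI2-type protein of genome maintenance, had the largest of them, 1.30 (SE 0.22), with 9.35, 8.83 and 9.25 in apl, against 8.05, 7.70 and 7.77 in wildtype. AT1G07970, for which no role is given here, had 8.90, 8.95 and 9.14 in apl, against 7.79, 7.64 and 7.78 in wildtype, a difference of 1.27 (SE 0.17). The difference of AT1G08580, also without a role here, was 1.26 (SE 0.18). In each of these genes all 3 apl arrays were above all 3 wildtype arrays. The RING-type protein AT1G08050 differed by 1.26 (SE 0.27), the aspartyl protease AT1G08210 by 1.20 (SE 0.19) and the ATP10-related protein AT1G08220 by 1.18 (SE 0.17).

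Other bright members had differences below 1 unit, although their 95% intervals still held 1. These intervals come from the fit that does not pair same-numbered arrays. For AT1G07990 that interval was 0.24 to 1.11. Intervals of single genes from a paired fit are not given here, so whether they would hold 1 is left undecided. The SIT4 phosphatase-associated protein AT1G07990 had 10.84, 10.82 and 10.59 in apl, against 10.17, 10.15 and 9.90 in wildtype, and the 3 same-numbered pairs differed by 0.67, 0.67 and 0.69. ClpR3 (AT1G09130), a subunit of the Clp protease that degrades proteins in plastids, had 11.74, 11.58 and 11.64 in apl, against 10.97, 11.23 and 10.78 in wildtype, a difference of 0.66 (SE 0.19). The cupin-type protein AT1G07750, the brightest member, had 12.02, 11.87 and 11.85 in apl, against 11.27, 11.22 and 11.08 in wildtype, a difference of 0.72 (SE 0.17). The groups did not overlap in any of these 3 genes. GALT29A (AT1G08280), a glycosyltransferase that extends arabinogalactan glycans, differed by 0.75 (SE 0.24), and the C13-family peptidase AT1G08750 by 0.89 (SE 0.19).

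The transporters varied between arrays, and no brighter one had groups that stood apart. GAT1 (AT1G08230), which carries the amino acid GABA, had 7.58, 5.74 and 7.0 in apl, against 6.86, 5.61 and 5.22 in wildtype, with a difference of 0.88 (SE 0.58). The neighbouring sugar transporter-type genes AT1G08890 and AT1G08900 differed by 0.61 (SE 0.36) and 0.46 (SE 0.44). Their arrays overlapped between genotypes. In same-numbered pairs AT1G08890 differed by 0.43, 0.45 and 0.95 and GAT1 by 0.73, 0.13 and 1.78, all above 0. AT1G08900 differed by 0.60, -0.18 and 0.96. AT1G08440, of the family of malate channels, is one of the dimmer members and had 3.76, 3.38 and 2.53 in apl, against 2.57, 2.12 and 2.46 in wildtype, a difference of 0.84 (SE 0.33).

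Among signalling genes the range ran from a doubling to below 0. PXL1 (AT1G08590) is a receptor-like kinase related to PXY, the receptor through which TDIF peptides act on vascular stem cells, and it has a pair of probe sets. The brighter one had 7.97, 8.13 and 8.36 in apl, against 7.06, 7.11 and 7.34 in wildtype, a difference of 0.98 (SE 0.19). The dimmer one had 3.92, 4.1 and 3.85 in apl, against 3.47, 3.72 and 4.00 in wildtype, and its difference of 0.23 (SE 0.21) was within the spread between arrays. The pair thus gave a value near a doubling at one probe set and near 0 at the other. The dimmer one, with a mean log2 signal of 3.84, lay under the 25th percentile of all probe sets. A small difference there says little about the transcript. Whether both probe sets read the same transcript was not tested. The PP2C-type phosphatase AT1G09160 differed by 1.16 (SE 0.18).

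**Figure D2:**
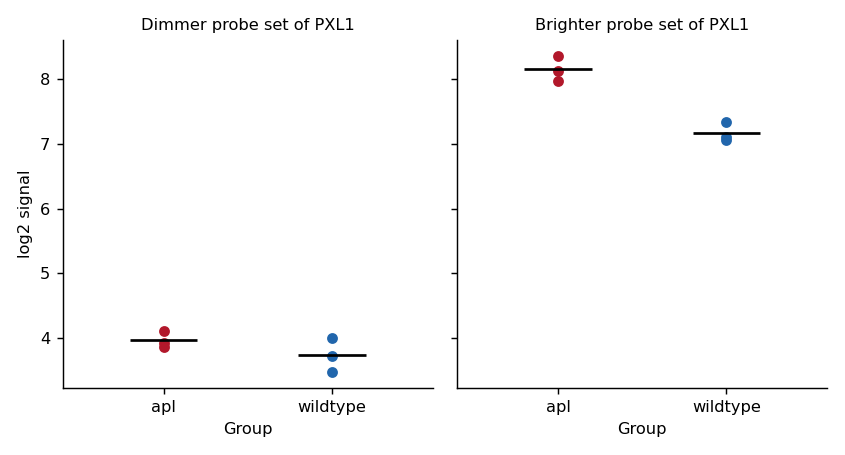
Log2 signal of each array at the pair of PXL1 probe sets, apl left of wildtype in each panel, with the group mean as a bar. At the brighter probe set the apl arrays lie between 7.97 and 8.36 and the wildtype arrays between 7.06 and 7.34, whereas at the dimmer one the groups overlap.

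A few members lay below 0 in apl. AT1G08160, of the LEA hydroxyproline-rich family, had 8.68, 11.26 and 6.71 in apl, against 12.14, 12.28 and 12.05 in wildtype. It was low in all 3 apl arrays, but by very unequal amounts, with a mean difference of -3.27 (SE 1.01). Leaving out apl replicate 3 gave -2.18, and leaving out apl replicate 2 gave -4.46. Further members below 0 were AT1G07650, a leucine-rich repeat receptor-like kinase (-0.24, SE 0.25), AT1G07690 (-0.79, SE 0.54) and AT1G07850 (-0.12, SE 0.27), and in all 3 the arrays of the genotypes overlapped. Another member below 0 is not reported here.

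The fit to a doubling was read from the 95% interval of each difference, taken from the limma fit over all probe sets. For 45 of 65 members the interval held 1 unit, as it did for 23.7% of all probe sets, and for 35 it lay above 0, against 4.66%. Both held together for 34 members, against 3.73%. The interval held 0 as well as 1 for 11 members, so that no change and a doubling could not be told apart for them. It lay wholly below 1 for 20 members, of which 16 were dimmer ones, and wholly above 1 for 0. With the replicate number as a block, 38 intervals held 1 and 39 lay above 0.

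Among the 41 brighter members the interval held 1 for 37 (16.0% of all probe sets above the median did), lay above 0 for 33 (4.95%) and did both for 32 (3.54%). The 4 that lay below 1 included AT1G07650, AT1G08160 and AT1G09050, and of the 4 AT1G09050 alone also lay above 0, with an interval of 0.02 to 0.92. AT1G09050 had 7.20, 7.14 and 7.47 in apl, against 6.94, 6.81 and 6.66 in wildtype, a difference of 0.47 (SE 0.19). Its neighbour AT1G09040 differed by 0.64 (SE 0.39). Other small differences among brighter members were those of AT1G08710, an F-box protein that would mark proteins for degradation, at 0.45 (SE 0.25), and AT1G09195 at 0.52 (SE 0.21).

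**Figure D3:**
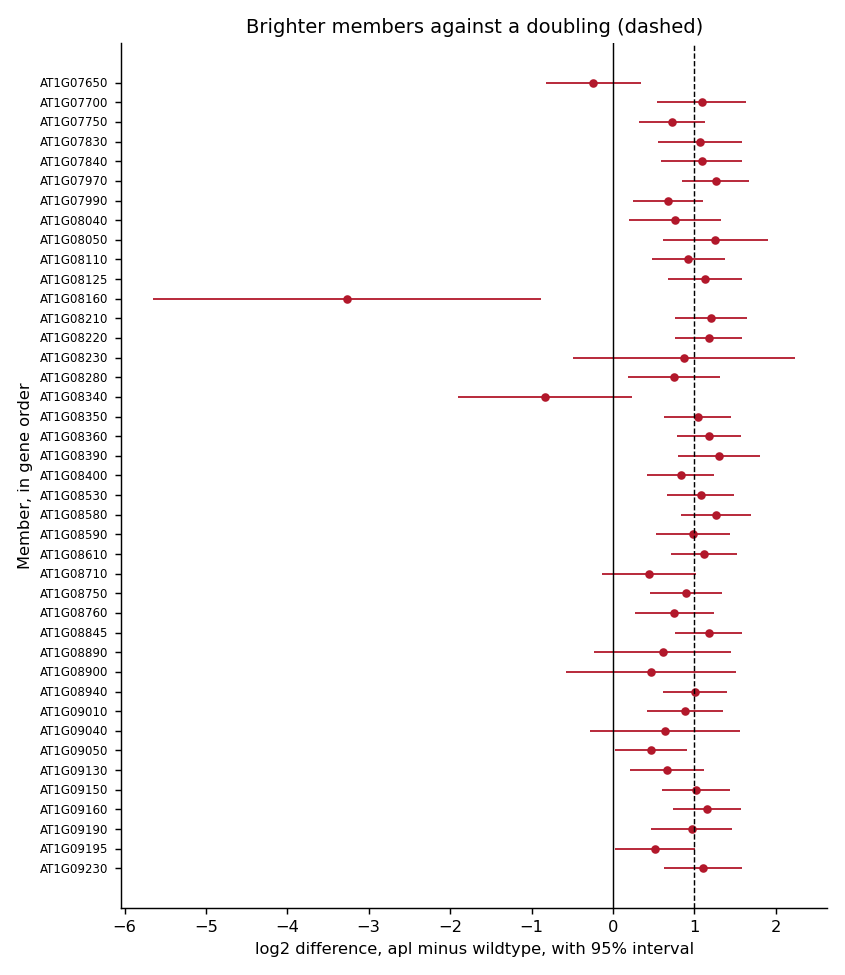
Log2 difference (apl minus wildtype) of the 41 brighter members in gene order, with 95% intervals from the limma fit. The solid line marks no difference and the dashed line a doubling, which lies inside 37 of the 41 intervals.

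The differences of the brighter members above 0 were set beside their own errors. This choice leaves out members below 0 and uses a level that includes the apl signal. It thus partly sets the spread and the medians given here. The errors come from the fit without the replicate number as a block, so they ignore the pairing of same-numbered arrays. Whether the members share 1 value was not tested. The 38 differences had an SD of 0.25, beside a median SE of 0.19, and a median of 0.99, or 1.99-fold. The 22 members above 0 with a mean log2 signal over 8 and up to 10 had an SD of 0.17 beside a median SE of 0.19, ran from 0.75 to 1.30, and had a median of 1.10, or 2.14-fold.

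The difference changed with the level of the signal, and not in one direction only. Members at a mean log2 signal up to 4 had a median difference of 0.21 (n = 10), those over 4 and up to 6 had 0.20 (n = 13), those over 6 and up to 8 had 0.62 (n = 14), and those over 8 and up to 10 had 1.09 (n = 23). The 5 members over 10 had a median of 0.67. The range in that last class ran from -3.27 for AT1G08160 to 0.89 for AT1G08750. At the same levels the median of probe sets outside the segment was 0.06, 0.11, 0.14, 0.11 and 0.12. Since this level contains part of each difference, the members were also classed by their wildtype signal alone, where the medians in the same 5 classes were 0.21 (n = 11), 0.32 (n = 16), 0.98 (n = 15), 1.07 (n = 19) and 0.67 (n = 4).

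Level did not settle the difference of every member. Within 0.25 of a doubling lay 1 of 10 members up to 4 and 1 of 13 over 4 and up to 6. There were 6 of 14 over 6 and up to 8, 18 of 23 over 8 and up to 10, and 1 of 5 over 10. In the same 5 classes 3.21%, 4.33%, 2.48%, 1.28% and 0.53% of probe sets outside the segment did so. AT1G09220 at 4.80 and AT1G08440 at 2.80 were the 2 dim members within 0.25 of a doubling. The dimmest members were AT1G07680, AT1G08985 and AT1G08670, an ENTH/VHS-type protein of vesicle transport, with differences of 0.01 (SE 0.26), 0.18 (SE 0.26) and 0.03 (SE 0.20). Of the 65 members, 9 lay under the 25th percentile of mean signal, and such signals are hard to part from background, so a small difference there says little about the transcript. The cause of the change with level was not tested.

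**Figure D4:**
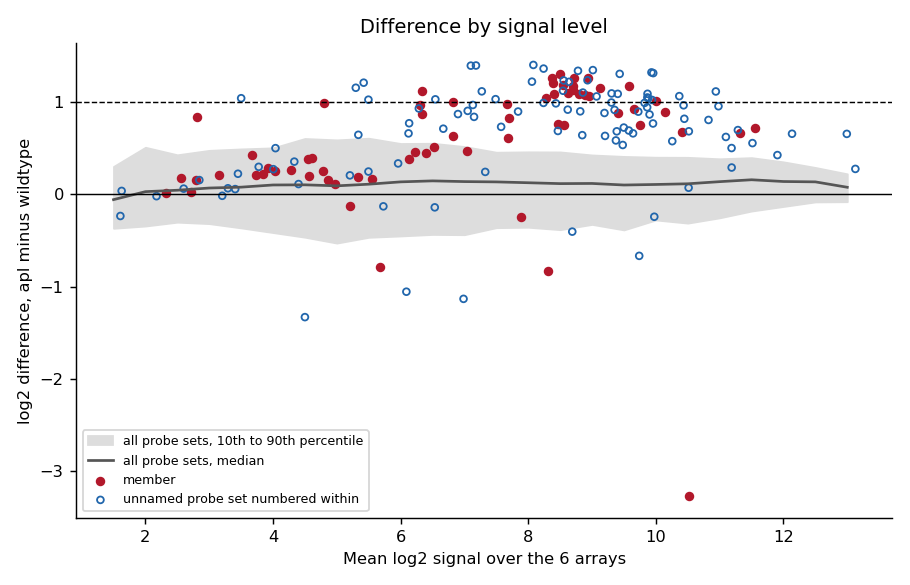
Log2 difference (apl minus wildtype) against the mean log2 signal over the 6 arrays. Red points are the 65 members, open blue circles are 105 unnamed probe sets numbered within the segment, the grey band holds the 10th to 90th percentile of all probe sets and the dashed line marks a doubling. Members over 8 and up to 10 cluster near 1, while most of those up to 6 lie inside the grey band.

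The 3 apl arrays agreed on the brighter members. Measured from each gene's wildtype mean, the median of the 41 was 0.93, 0.95 and 1.04 in apl replicates 1 to 3, and 0.06, 0.03 and -0.07 in wildtype replicates 1 to 3. In same-numbered pairs it was 0.94, 0.87 and 0.98, and 37 of the 41 were above 0 in all 3 pairs. Over all 65 members 44 were above 0 in all 3 pairs, against 28.2% of all probe sets. The dimmer members differed more between pairs, with medians of 0.43, 0.32 and -0.04 in pairs 1 to 3, and 7 of 24 were above 0 in all 3. Dim probe sets outside the segment, singly paired, had medians of 0.13, 0.11 and -0.06 in these pairs, so they were also lowest in the third.

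**Figure D5:**
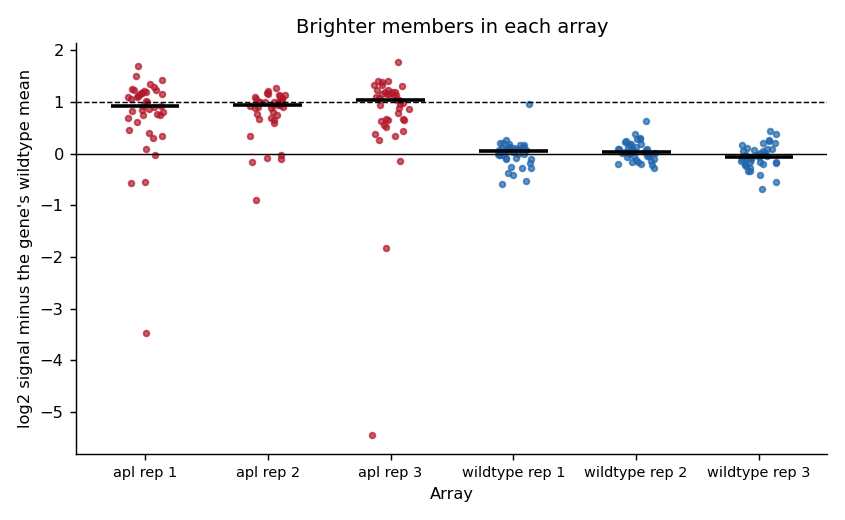
Log2 signal of the 41 brighter members in each array, measured from each gene's wildtype mean, with the 3 apl arrays left of the 3 wildtype arrays and the median as a bar. The medians are 0.93, 0.95 and 1.04 in apl and 0.06, 0.03 and -0.07 in wildtype, and the lowest point in each apl replicate is AT1G08160.

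The difference was much alike along the segment. From AT1G07700 on there were 40 brighter members, and in gene order each successive set of 10 had a median of 1.08, 0.96, 0.94 and 0.93. The lowest values in these sets were 0.67, -3.27, 0.45 and 0.47. All but 2 of the 40, one of them AT1G08160, differed by 0.45 or more.

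At the left end the first members showed no clear rise in apl. Just inside, AT1G07650, AT1G07680 and AT1G07690 had differences of -0.24, 0.01 and -0.79. AT1G07700, a thioredoxin-fold protein and the next member, had 9.29, 8.74 and 8.81 in apl, against 7.60, 8.05 and 7.92 in wildtype, a difference of 1.09 (SE 0.23). Just outside, the metallothionein gene MT1C, AT1G07615 and ATOBGM had differences of -0.73, 0.44 and -0.12. AT1G07680 and AT1G07690 were dim, with mean log2 signals of 2.33 and 5.68, and dimmer members of the whole segment had a median of only 0.21. They thus say little about where the rise begins. Of the first members, AT1G07650 alone was among the brighter ones. The 62 members from AT1G07700 on had a median of 0.74 with 59 above 0.

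At the right end the last members stood above 0 and the first genes outside were lower. Inside, AT1G09195, AT1G09220 and AT1G09230 had differences of 0.52, 1.0 and 1.10, and just outside AT1G09245, AT1G09260 and AT1G09300 had 0.01, 0.15 and 0.29. Of these 3 outer genes the first pair was dim, with mean log2 signals of 3.75 and 2.51. The 20 singly paired genes on the left had a median of -0.02 and the 20 on the right 0.05, and the 95% interval lay above 0 in 0 of either. It lay below 0 in 2 genes on the left and 3 on the right, against 4.34% of all probe sets, with the lowest difference at -1.02 on the left and -2.07 on the right.

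Genes of the segment that the annotation lists under a name are not members but lie among them. There were 17, with a median difference of 0.71, and 16 lay above 0. At a mean log2 signal over 8 and up to 10 their median was 0.72 (n = 7), below the 1.09 of members (n = 23). It was 1.01 over 6 and up to 8 (n = 2) and 0.51 over 10 (n = 3). HTB1, a histone H2B, had 8.38, 8.36 and 8.51 in apl, against 7.49, 7.08 and 6.95 in wildtype, a difference of 1.25 (SE 0.20). PDIL5-1, a protein disulfide isomerase-like protein, differed by 1.01 (SE 0.17), and CPNIFS, which supplies sulfur for iron-sulfur clusters in plastids, by 1.0 (SE 0.19). The brightest, FATB, a thioesterase that releases saturated fatty acids in plastids, had 12.73, 12.62 and 12.61 in apl, against 12.13, 12.10 and 12.19 in wildtype, a difference of 0.51 (SE 0.16). CRT1b, a calreticulin, differed by 0.44 (SE 0.18), and for both of these bright genes the interval lay above 0 and below 1.

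Probe sets paired with several genes cannot be assigned to 1 copy, and their values are uncertain for that reason. The translation factor eEF1A has 3 neighbouring genes in the segment, AT1G07920, AT1G07930 and AT1G07940, and a copy on chromosome 5, AT5G60390. The probe set that lists AT1G07930 first had 9.28, 9.23 and 9.30 in apl, against 8.52, 8.43 and 8.51 in wildtype, a difference of 0.78 (SE 0.16). Those that list AT1G07920 and AT1G07940 first differed by 0.40 (SE 0.18) and 0.41 (SE 0.31), and the one that lists AT5G60390 first by 0.10 (SE 0.18). Of the 8 probe sets shared by 8 histone H4 genes, the one listing AT1G07820 of the segment first differed by 1.11 (SE 0.26), the one listing AT1G07660 first by 0.27 (SE 0.32), and the 6 listing genes elsewhere first by -0.03 to 0.67. The sources used here do not say what the order of genes in the annotation means.

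Most unnamed probe sets numbered within the segment also stood higher in apl. The numbers follow gene order in a pair of blocks, and 105 probe sets without a gene lie between the first and last member of either block. Of these, 78 were above the overall median of signal, with a median difference of 0.90, and 40 of the 78 lay within 0.25 of a doubling. By level their medians were 0.06 up to 4 (n = 11), 0.34 up to 6 (n = 13), 0.87 up to 8 (n = 19), 0.99 up to 10 (n = 44) and 0.66 over 10 (n = 18). The last class was again lower than the one before it, as among the members. These probe sets were measured on the same arrays, so they describe the segment and do not test it.

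In wildtype alone, 37 of 65 members (56.9%) lay above the median of all probe sets, against 47.9% of 16640 singly paired probe sets elsewhere, a contrast that was not tested. All 64 loci are protein-coding genes in RefSeq assembly TAIR10.1, which has 172 such loci within the limits of the segment. Another 17 of the 172 are the genes listed under a name, and the others are not singly paired in the annotation used.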

How the data were processed

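Total RNA from 6 cotyledon samples was labelled with biotin and hybridised to 1-colour Affymetrix arrays, per the labels' protocols. The deposited values are log2 signals made by the authors with RMA, per the submitters' processing notes, which give no version. RMA corrects for background, brings arrays to one distribution and combines the probes of a set. They carry no detection call, and the number of arrays limits the precision. Genes were named from the platform annotation, which pairs 16722 probe sets with 1 gene, 759 with several and 20927 with none.

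The deposited log2 values were fitted in R 4.3.3 with limma 3.58.1 (lmFit, then eBayes), apl minus wildtype, over all 38408 probe sets, 2-sided, with Benjamini-Hochberg adjustment, calls at an adjusted p under 0.05 and 95% intervals from the moderated SE. The fit was tested on simulated data. Figures used matplotlib 3.10.9. Members, gene lists and groupings were chosen with earlier results of these data known. Named were called members, the 8 largest and 8 smallest differences among brighter members, the genes at both ends, members on a role list, and the 3 brightest and 3 dimmest. One member that this rule selects is not reported here. Other genes were named for their role or value after their values were seen.

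Both groups share replicate numbers. Correlations of deviations from group means were 0.40 to 0.45 in the 3 same-numbered pairs and -0.29 to -0.16 otherwise, and same-numbered arrays held 740 to 940 identical values, against at most 2. The numbers were taken to pair the arrays, from the data and not from the labels, and the pairing can lie in the processing. Since nothing says that replicates were separate cultures, errors measure only the spread between these samples. Alternatives were the replicate block, quantile normalization, median centring, a variance trend with robust prior, a dim filter, other thresholds and splits, 1 probe set per gene, and leaving out each array.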

Additional observations from a re-analysis of the deposited data

How the results depend on the processing

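The median difference of all members was 0.67 and stayed between 0.62 and 0.75 under every alternative run, and that of dimmer members, 0.21, between 0.15 and 0.40. The median of brighter members, 0.97, was 0.91 after quantile normalization and after median centring and 0.93 to 0.99 with 1 array left out. It moved to 0.76 and 1.08 when brighter meant above the 25th or 75th percentile of signal, and to 0.89 with the named genes of the segment included. With the split made on wildtype signal alone it was 0.98, and both of these settings were added after the data were seen. Counts above 0 were 54 to 60 throughout, intervals holding 1 were 38 to 50, and intervals above 0 were 32 to 39. Members called higher numbered 5, and 14 with probe sets under the 25th percentile left out, where fewer were tested, 18 with a variance trend and robust prior, 16 at an adjusted p under 0.10, 6 with the replicate block and 0 without any 1 array, where 32 to 34 had an unadjusted p under 0.05. The replicate block ended the call of AT1G08580 (limma adjusted p 0.0542) and median centring that of AT1G08220 (0.0559). Over all probe sets, 30 were called higher and 202 lower, and these counts were 81 and 340 with the replicate block, 98 and 314 with the variance trend, 97 and 321 at 0.10, 61 higher with the dim filter, and 1 to 22 and 20 to 308 without 1 array. The cause of moves other than by fewer tests was not tested. None of 290 values of 29 named probe sets moved by more than 1 SD between replicates, but most settings could not show such a move. The replicate block and the variance trend leave each difference unchanged. Leaving out 1 array shifts a group mean by less than that group's SD. AT1G08160 counted as unmoved although its -3.27 became -2.18 without apl replicate 3 and -4.46 without apl replicate 2. Signal without detection calls limits what can be said of members near background.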

Other observations

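Between AT1G09176, the last member of its block of probe set numbers, and AT1G09260 lie 3 unnamed probe sets. They were looked at after the values had been seen. The last members of the segment, up to AT1G09230, are numbered in the other block. These 3 probe sets can thus lie inside the segment or past its right end. One of them (13337862) had log2 signals of 8.05, 8.0 and 8.27 in apl, against 5.93, 6.09 and 6.17 in wildtype, a difference of 2.04 (SE 0.18) or 4.13-fold, above the highest difference of any member, 1.30. Its groups did not overlap, and its limma adjusted p was 0.010 over all probe sets. The other 2 differed by 0.19 (SE 0.40) and 0.77 (SE 0.54), with arrays that overlapped. The next unnamed probe set, beyond AT1G09260, differed by 0.001 (SE 0.20). The sources used here do not say what these probe sets measure.

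Probe sets of several genes gave further values in the segment. The probe set shared by the neighbours AT1G07740 and AT1G07730 differed by 1.13 (SE 0.22), and the one shared by AT1G07870 and AT1G07860 by 1.18 (SE 0.21) at a mean log2 signal of only 5.45. Those shared by AT1G08310 and AT1G08315 differed by -0.77 (SE 0.50) and 0.35 (SE 0.31). Among the 5 probe sets shared by histone H3 genes that include AT1G09200 of the segment, the one listing AT1G09200 first differed by 0.75 (SE 0.33) and the others by 0.05 to 0.60.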
